A study of Mus musculus with 20 samples.

Results

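The genes described here are 6 receptor chains of the common gamma chain cytokine family, Il2rg, Il2rb, Il2ra, Il7r, Il4ra and Il15ra, together with the cytokine gene Il15. They were taken by gene symbol from both deposited tables, and all 7 were listed in each, among 10696 genes for IL25R+ cells and 10580 for ST2+ cells. RNA came from group 2 innate lymphoid cells (ILC2), lymphocytes without antigen receptors that make type-2 cytokines, which were isolated from thymi of young, male, wild-type (WT) mice as 2 sorted populations, one high for the IL-25 receptor (IL25R+) and one positive for the IL-33 receptor chain ST2 (ST2+). Every culture, vehicle controls included, held IL-7 at 10 ng/mL, itself a ligand of this receptor family. After 12 h the medium was exchanged, and after a further 24 h the cells received PBS vehicle or recombinant cytokine at 10 ng/mL for 24 h. The IL25R+ cells formed 4 groups of 3 libraries, with vehicle, IL-25, IL-33 or both cytokines, and the ST2+ cells 2 groups of 4, with vehicle or IL-33. Whether the libraries of a group came from separate mice is not given in the labels, so the p-values measure the spread between these samples, which may be technical.

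The common gamma chain, the product of Il2rg, is the signalling subunit that the receptors for IL-2, IL-4, IL-7, IL-9, IL-15 and IL-21 share. It pairs with a chain that sets the ligand: the IL-7 receptor alpha chain (Il7r), the IL-4 receptor alpha chain (Il4ra), or the beta chain of the IL-2 and IL-15 receptors (Il2rb). Il2ra (CD25) and Il15ra encode alpha chains that raise the affinity of the beta and gamma pair for IL-2 and IL-15, and the IL-15 receptor alpha chain can also present IL-15 to neighbouring cells. These receptors signal through the kinases JAK1 and JAK3 to STAT proteins, chiefly STAT5 for IL-2, IL-7 and IL-15. ILC2 depend on IL-7 for their survival, and IL-2 can raise their output of cytokines.

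On mouse build mm10 (GRCm38), GENCODE M21 places Il2ra on chromosome 2 at 11642807 to 11693193 and Il15ra on the same strand at 11705290 to 11734317, with 12096 bases and no annotated gene between them. Il7r lies on chromosome 15 at 9505788 to 9530176, Il2rb on chromosome 15 at 78479256 to 78495271, and Il2rg on chromosome X at 101264378 to 101268255. Il4ra lies on chromosome 7 at 125552120 to 125579474 and Il15 on chromosome 8 at 82331632 to 82403222. All 7 are protein-coding. The gene models Gm37881, Gm20489 and Gm44876 overlap Il2ra, Il2rg and Il4ra, and none of these models was listed in the tables. How reads shared with them were counted is not given.

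The proximal promoters of Il2ra and Il2rg are printed because the calls of these receptor chains overlapped only in part, and because Il2ra carried a motif match. As described further on, both chains were called with IL-25 against vehicle. Of the pair, only Il2ra was called with both cytokines against vehicle and with IL-33 in ST2+ cells. Each run holds the 250 bases before the RefSeq start (build GRCm38.p6), at chr2:11642542-11642791 on the plus strand for Il2ra and chrX:101268256-101268505 on the minus strand for Il2rg. Capitals mark matches to the NF-kB motif.
Il2ra: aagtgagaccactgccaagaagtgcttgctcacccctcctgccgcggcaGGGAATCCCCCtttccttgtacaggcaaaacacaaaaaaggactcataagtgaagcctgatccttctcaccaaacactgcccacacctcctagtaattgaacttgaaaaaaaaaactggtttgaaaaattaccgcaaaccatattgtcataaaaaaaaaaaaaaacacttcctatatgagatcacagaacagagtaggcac
Il2rg: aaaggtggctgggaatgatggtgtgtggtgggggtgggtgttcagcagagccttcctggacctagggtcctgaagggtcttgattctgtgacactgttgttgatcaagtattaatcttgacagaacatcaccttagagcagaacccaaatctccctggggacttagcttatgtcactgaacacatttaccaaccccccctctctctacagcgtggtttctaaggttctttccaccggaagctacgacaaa
The capitals in Il2ra are 2 overlapping NF-kB matches, at -201 to -192 and -200 to -191 from the start, and the Il2rg window holds none. The STAT motif TTCNNNGAA, searched on both strands, has no match in either window and 1 in that of Il7r, at -142 to -134. That Il7r window lies inside the GENCODE span of the gene, with 86 of its 250 bases in annotated exons. Il2rb and Il15 had no window to search. Of 32851 such windows of 27025 genes, 7.25% hold the NF-kB motif and 7.02% the STAT motif, so each match is a description of the letters and not a measured binding site.

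The IL25R+ libraries held 834913 to 1880906 counts and the ST2+ libraries 537999 to 5453444. The tables were scaled separately, so levels are compared within a population only. Replicates of IL25R+ cells varied less than those of ST2+ cells, with edgeR's biological coefficients of variation at 0.128 and 0.328. Against the label, IL25R+ libraries held 6 of 8 T cell markers well above 0, while Cd4 (0.547 to 7.85 CPM, which are counts scaled to library size) and Cd5 (0 to 6.96 CPM) were low. Cd3d was at 104 to 228 CPM and Cd8a at 27.7 to 71.9 CPM, while Klrg1, a surface marker of mature ILC2, was at 0 to 13.0 CPM. Gata3, the master factor of ILC2, was at 97.4 to 245 CPM there. In ST2+ libraries Klrg1 was at 41.9 to 122 CPM, Gata3 at 315 to 766 CPM and Cd3d at 1.41 to 13.8 CPM. On these separate scales Id2, Il1rl1 and Icos also ran higher in ST2+ libraries. Thy1 went the other way, at 2465 to 3104 CPM in IL25R+ and 121 to 1370 CPM in ST2+ libraries. Rora was at 5.08 to 16.8 and 1.41 to 27.4 CPM, and Il17rb, a chain of the IL-25 receptor, at 10.8 to 34.0 and 12.2 to 125 CPM. Among T cell markers of ST2+ libraries, Lck (21.3 to 213 CPM) and Cd3g (10.6 to 92.1 CPM) reached higher levels than Cd3d. Since T cells use the same receptor family, and since fewer cells of a type and less RNA per cell cannot be told apart in bulk RNA, each value below belongs to the sorted culture as a whole. The IL25R+ libraries also fell on 2 sides by Glycam1, a secreted mucin-like glycoprotein, which was at 125.1 to 454.7 CPM in the vehicle and both-cytokine libraries and IL-33 library 3, and at 0.731 CPM or less in the IL-25 libraries and IL-33 libraries 1 and 2. IL-25 against vehicle lies across that split and both cytokines against vehicle lies on 1 side of it. In the ST2+ table vehicle library 3 held the highest sum of stromal markers (201 CPM against 33.3 to 107 in the others), vehicle library 4 that of basophil markers (227 CPM against 22.7 or less), and IL-33 library 2 the lowest sum of ILC2 markers of its group (5472 CPM against 12434 to 15993). Most of that sum is Il13, which IL-33 raised, at 3331 CPM in library 2 and 9129 to 12731 CPM in the others; without Il13 library 2 was again lowest, at 2142 CPM against 3031 to 3306.

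IL-25 raised 3 receptor chains in IL25R+ cells, Il2rg, Il2rb and Il2ra, and lowered Il15. The 3 receptor calls, but not that of Il15, were lost when the split of the libraries by Glycam1 entered the fit as a term (adjusted p of 0.0702 for Il2rb, 0.241 for Il2rg and 0.328 for Il2ra). Both cytokines together gave higher Il2ra and Il2rb and lower Il15 than vehicle, while no member passed the test with IL-33 alone. In ST2+ cells IL-33 lowered Il7r and raised Il2ra and Il2rb. A gene was called changed at a Benjamini-Hochberg adjusted p under 0.05 over all genes tested, in edgeR's quasi-likelihood fit.

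Read against all genes, IL-25 called 4 of the 7 members and 15% of 8850 genes: 3 members rose and 1 fell, where 9.07% of all genes rose and 5.9% fell. Both cytokines called 3 members and 15.6% of all genes, with 2 members up and 1 down, where 8.97% of all genes rose and 6.67% fell. IL-33 in IL25R+ cells called 0 of 7 and 0.237% of all genes by edgeR, with 1069 of 8850 genes at an unadjusted p under 0.05, and DESeq2 and limma-voom also called 0 members. Il2rg was the 1 member with an unadjusted p under 0.05 there (0.0209). In ST2+ cells 6 members could be tested, of which 3 were called, as were 16.5% of 7626 genes, with 2 members up and 1 down, where 8.52% of all genes rose and 8.03% fell. Leaving out ST2+ IL-33 library 1 ended all 3 of these calls. Both cytokines differed from IL-33 in 4 members (17.2% of all genes), and IL-33 from IL-25 in 3 (13.8%), while both cytokines against IL-25 alone gave 0 of 7 (3.14%), with an unadjusted p under 0.05 for 1 member, Il2rg (0.0188). DESeq2 and limma-voom likewise called 0 members there. The interaction of the cytokines called 0 of 7 (2.35% of all genes), again with 1 unadjusted p under 0.05, that of Il2rg (0.00177), which DESeq2 and limma-voom called. Under 20 alternatives the adjusted p of Il2rg for the interaction ran from 0.00981 to 0.850. Groups that did not overlap in any library were found for 5 members with IL-25 (35.3% of all genes), 4 with both cytokines (36.3%), 1 with IL-33 in IL25R+ cells (14.5%) and 3 with IL-33 in ST2+ cells (22%). The members' directions were mixed in each comparison and the median log2 fold change of all genes stayed between -0.03 and 0.01 in these 4 comparisons with vehicle.

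**Figure D1:**
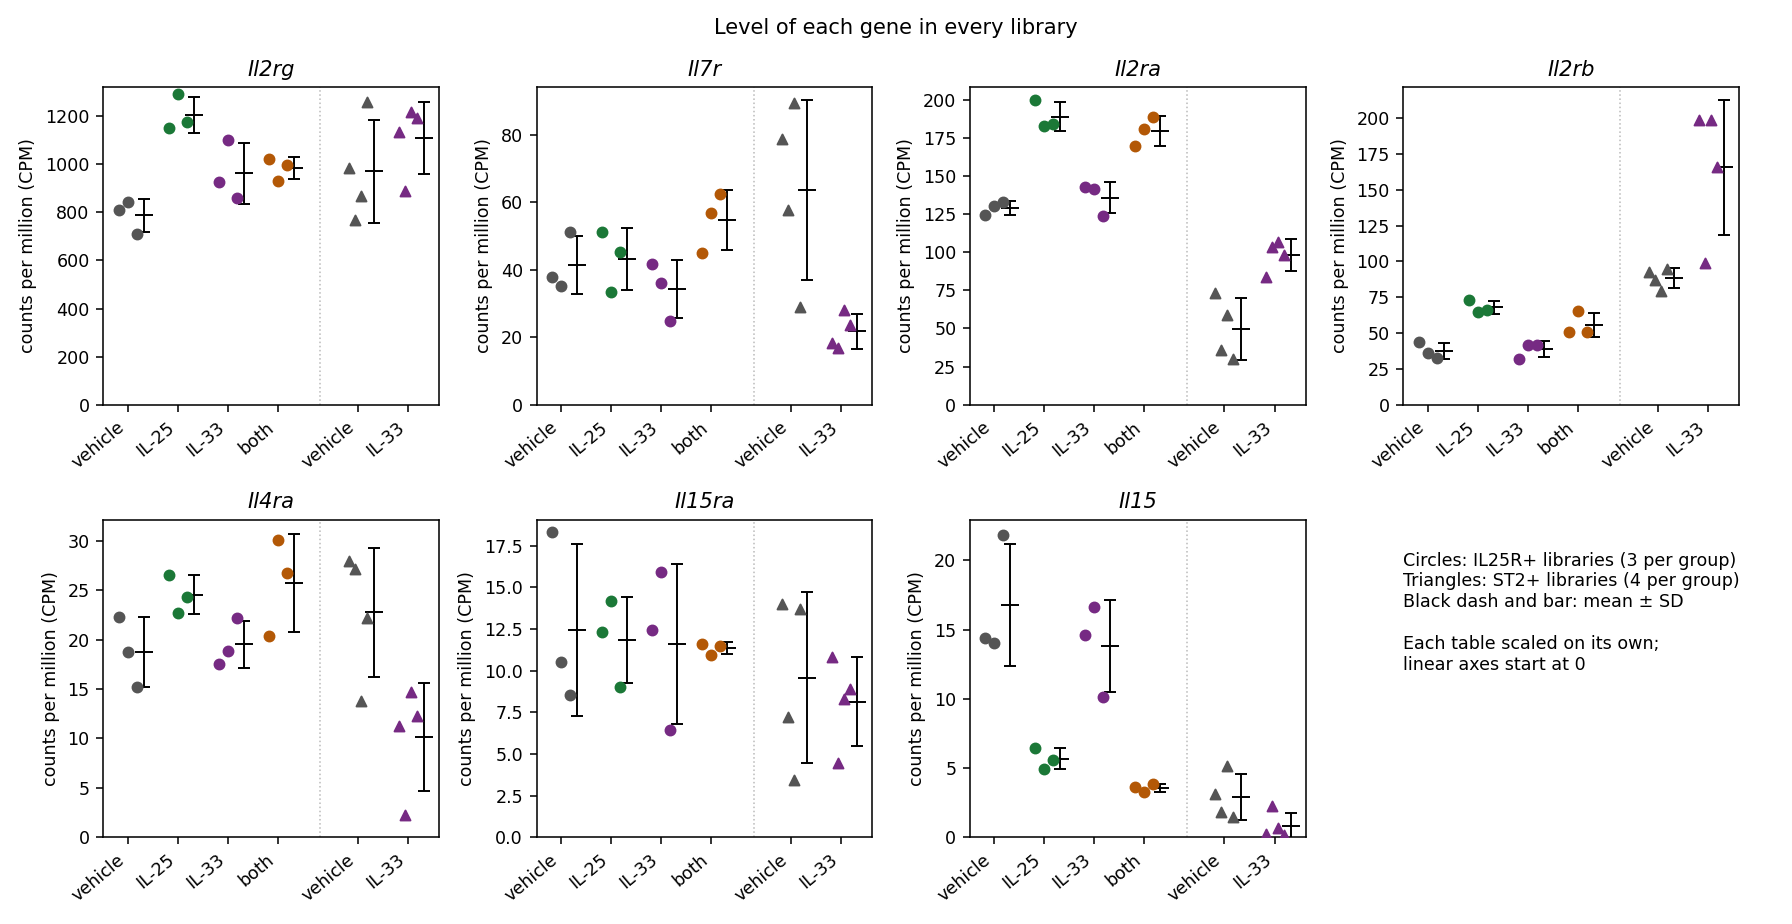
Level of each gene in CPM (vertical axes, linear, from 0) in every library, with IL25R+ groups left of the dotted line as circles and ST2+ groups right of it as triangles; black dashes and bars give the mean and SD, and the bar for Il15 in ST2+ cells with IL-33 reaches below 0. Il2rg, Il2rb and Il2ra lie highest with IL-25 in IL25R+ cells, and in ST2+ cells Il7r falls from 63.7 to 21.7 CPM with IL-33 while Il2ra and Il2rb rise.

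Il2rg, the shared gamma chain, was at 810.1, 842 and 709.7 CPM in the vehicle libraries of IL25R+ cells and at 1150.0, 1292 and 1176 CPM with IL-25. The groups did not overlap, and the rise was 0.61 ± 0.12 (SE) on the log2 scale, or 1.53-fold (adjusted p = 0.000895; 0.241 with the split term). With IL-33 the libraries held 927, 1101 and 858 CPM and with both cytokines 1023, 932 and 999 CPM. All of these libraries lay above all vehicle libraries, and below all IL-25 libraries, but neither difference from vehicle passed the test (0.29 ± 0.12 with adjusted p = 0.316 and 0.32 ± 0.12 with adjusted p = 0.0642). The value for both cytokines was sensitive to the tool: DESeq2 gave an adjusted p of 0.0369 and limma-voom one of 0.0426, and the authors' deposited table gave 0.0318. In the order of the groups, IL-25 with 1206 ± 75.4 CPM (SD, n = 3), both cytokines with 984 ± 47.2, IL-33 with 962 ± 125 and vehicle with 787 ± 69.2, no neighbours differed past the test. The interaction, which asks whether both cytokines together differ from the sum of their separate effects on the log2 scale, was -0.58 ± 0.16 (adjusted p = 0.0622). It passed with DESeq2 (adjusted p = 0.0187), limma-voom (0.0449) and without IL-33 library 3 (0.00981). In the rest of the 20 alternatives it did not pass, with an adjusted p of up to 0.850. In ST2+ cells Il2rg was at 986, 768, 867 and 1261 CPM with vehicle and at 1135, 891, 1216 and 1193 CPM with IL-33, which overlap (0.19 ± 0.22, adjusted p = 0.598).

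Il2rb, the beta chain shared by the IL-2 and IL-15 receptors, rose from 43.8, 36.3 and 32.3 CPM in the vehicle libraries of IL25R+ cells to 73.2, 64.5 and 66.1 CPM with IL-25, with no overlap (0.84 ± 0.18, 1.79-fold, adjusted p = 0.00234; 0.0702 with the split term). With both cytokines it was at 50.8, 65.1 and 51.0 CPM, again above every vehicle library (0.56 ± 0.18, adjusted p = 0.0363). That call was lost with DESeq2 (adjusted p = 0.0833) and without both-cytokine library 2 (0.176), vehicle library 2 (0.0826) or vehicle library 3 (0.146). IL-33 alone left it at 32.1, 42.0 and 41.6 CPM, within the vehicle range but for the lowest library (0.02 ± 0.19, adjusted p = 0.986). The groups thus ran IL-25 (67.9 ± 4.65 CPM, SD, n = 3), both cytokines (55.6 ± 8.20), IL-33 (38.6 ± 5.56) and vehicle (37.5 ± 5.86), and among neighbours in this order the step from IL-33 to both cytokines passed (0.54 ± 0.17, adjusted p = 0.0362). That step was lost with DESeq2 (0.0885) and without both-cytokine library 2 (0.192) or 3 (0.0506) or IL-33 library 1 (0.153) or 2 (0.0529). It was also lost with the split term (adjusted p = 0.336) and with the 2 groups alone (0.0776), and without IL-33 libraries 1 and 2 together it was 0.42. In ST2+ cells Il2rb was at 92.6, 86.7, 79.2 and 94.7 CPM with vehicle and at 199, 99.1, 198 and 166 CPM with IL-33. All IL-33 libraries lay above all vehicle libraries, with library 2 close to them (0.91 ± 0.23, 1.87-fold, adjusted p = 0.024). Leaving out IL-33 library 1 or 4 or vehicle library 1, 2 or 3 raised the adjusted p to between 0.0621 and 0.0954.

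Il2ra, the IL-2 receptor alpha chain CD25, was at 124, 130.0 and 133 CPM with vehicle in IL25R+ cells and at 199.6, 183 and 184 CPM with IL-25. With both cytokines it was at 169, 181 and 189 CPM. Libraries with IL-25, alone or with IL-33, lay above every vehicle library, and both rises passed the test (0.55 ± 0.12, 1.46-fold, adjusted p = 0.00279, or 0.328 with the split term, and 0.48 ± 0.12, 1.39-fold, adjusted p = 0.00782). IL-33 alone gave 142, 141 and 124 CPM, a range that overlaps vehicle (0.08 ± 0.12, adjusted p = 0.866). The step from IL-33 (136 ± 10.4 CPM, SD, n = 3) to both cytokines (179 ± 9.70) was the one difference between neighbours that passed (0.40 ± 0.12, adjusted p = 0.0202). Among fits without a single library, it was lost without both-cytokine library 2 (0.0625) or 3 (0.083). In ST2+ cells Il2ra was at 73.5, 36.1, 58.5 and 30.0 CPM with vehicle and at 83.6, 104, 107 and 98.4 CPM with IL-33. The groups did not overlap and the rise was 0.98 ± 0.28 on the log2 scale (1.97-fold, adjusted p = 0.0376). Leaving out any one library except IL-33 library 2 or vehicle library 1 ended the call, with adjusted p between 0.0588 and 0.112, and so did leaving out the 3 ST2+ libraries that stand apart (0.73, adjusted p = 0.0845).

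Il7r, the receptor chain for the IL-7 present in all cultures, fell with IL-33 in ST2+ cells. Vehicle libraries held 78.7, 57.8, 89.5 and 28.9 CPM and IL-33 libraries 18.3, 16.7, 28.2 and 23.7 CPM. The highest IL-33 library lay just under the lowest vehicle library, which is library 4, and the fall was 1.52 ± 0.35 on the log2 scale (2.87-fold, adjusted p = 0.0145). The authors' deposited table gives the log2 ratio of vehicle over IL-33 as 1.47, with an adjusted p of 0.00169. Without IL-33 library 1 the adjusted p was 0.0518 and without vehicle library 1 it was 0.055. In IL25R+ cells Il7r showed no such fall: it was at 37.9, 35.1 and 51.2 CPM with vehicle, 51.2, 33.3 and 45.2 CPM with IL-25, and 41.6, 36.2 and 24.9 CPM with IL-33. With both cytokines it was at 45.0, 56.9 and 62.4 CPM, above all IL-33 libraries and overlapping the others. Both cytokines against IL-33 was the one comparison of IL25R+ groups in which Il7r was called (0.66 ± 0.21, 1.58-fold, adjusted p = 0.033). It was lost with DESeq2 (0.0516), with the 2 groups alone (0.0573) and without both-cytokine library 2 (0.0939) or 3 (0.13) or IL-33 library 2 (0.0639) or 3 (0.0854).

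The contrary movement of Il2ra and Il7r in ST2+ cells can be read within a library, where scaling has no part. Il2ra had 0.934, 0.625, 0.654 and 1.04 counts per Il7r count in the vehicle libraries and 4.57, 6.20, 3.80 and 4.15 with IL-33. The lowest IL-33 library thus had a ratio above that of every vehicle library, on 15 to 152 counts of Il7r per library. IL25R+ libraries had ratios of 2.59 to 3.70 with vehicle, 3.90 to 5.49 with IL-25, 3.42 to 4.96 with IL-33 and 3.02 to 3.76 with both cytokines. The IL-25 libraries lay above all vehicle libraries, and the other groups overlapped vehicle. The ratio compares 2 genes that differ in length and was not tested, because both genes were seen to move before it was formed.

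**Figure D2:**
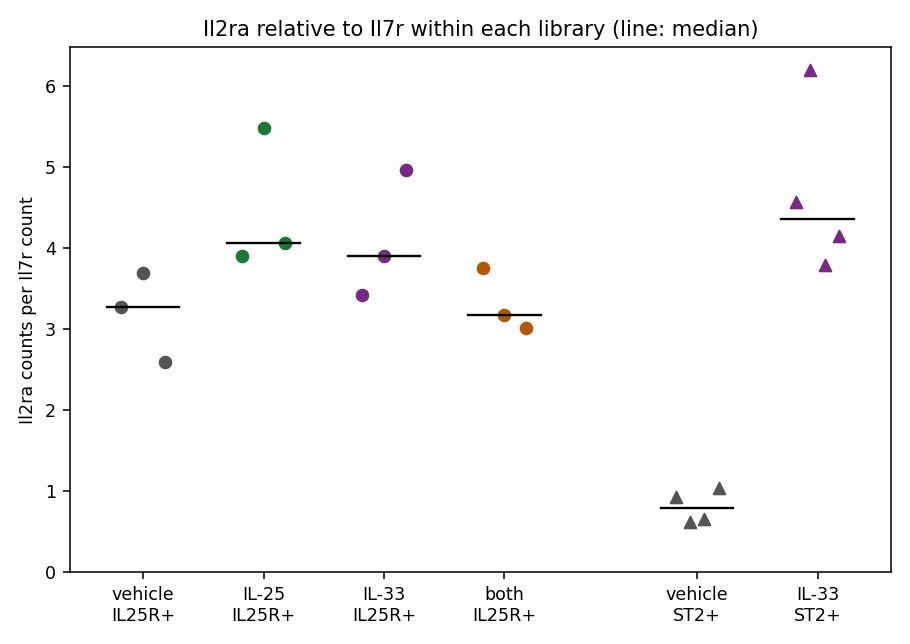
Il2ra counts per Il7r count (vertical axis, linear, from 0) in every library by group, with a line at each median. The ST2+ vehicle libraries lie at 0.625 to 1.04 and the ST2+ IL-33 libraries at 3.80 to 6.20, within or above the range of the IL25R+ libraries.

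Il4ra, the chain that binds IL-4 and also joins the IL-13 receptor, passed no test. Its levels in IL25R+ cells were 22.2, 18.7 and 15.2 CPM with vehicle, 26.6, 22.7 and 24.3 CPM with IL-25, 17.5, 18.8 and 22.2 CPM with IL-33, and 20.3, 30.1 and 26.8 CPM with both cytokines. The IL-25 libraries lay above the vehicle libraries (0.37 ± 0.24, adjusted p = 0.331), and no other group parted from vehicle. In ST2+ cells it was at 27.9, 27.1, 13.8 and 22.2 CPM with vehicle and at 11.2, 2.23, 14.7 and 12.3 CPM with IL-33, with overlap through vehicle library 3 (-1.11 ± 0.42, adjusted p = 0.0957). DESeq2 gave an adjusted p of 0.0425 for that difference, and edgeR gave 0.0459 without IL-33 library 2, which held 2 counts of Il4ra, and 0.0197 without the 3 ST2+ libraries that stand apart.

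Il15ra, the IL-15 receptor alpha chain, passed no test in either population. It was read from 7 to 28 counts per IL25R+ library, at group means of 12.5 ± 5.16 CPM with vehicle, 11.8 ± 2.59 with IL-25, 11.6 ± 4.78 with IL-33 and 11.3 ± 0.356 with both cytokines (SD, n = 3). Its log2 fold changes over vehicle were -0.14 ± 0.35 with IL-25, -0.14 ± 0.36 with IL-33 and -0.21 ± 0.35 with both cytokines. ST2+ cells held 9.58 ± 5.15 CPM with vehicle and 8.13 ± 2.68 with IL-33 (SD, n = 4; -0.31 ± 0.42, adjusted p = 0.65). With SEs of this size, a difference of 0.55, as found for Il2ra with IL-25, was not detectable for Il15ra at this depth. Il2ra, its neighbour on chromosome 2, was called in 3 of the comparisons with vehicle.

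Il15, the only ligand among the members, was lowered wherever IL-25 was present in IL25R+ cells. Vehicle libraries held 14.4, 14.1 and 21.8 CPM (57 counts in all), IL-25 libraries 6.48, 4.96 and 5.57 CPM (25 counts) and libraries with both cytokines 3.63, 3.28 and 3.82 CPM (17 counts). Neither group overlapped vehicle, and the log2 fold changes were -1.54 ± 0.34 and -2.20 ± 0.37 (2.90-fold lower, adjusted p = 0.00391, and 4.59-fold lower, adjusted p = 0.000255). Both calls held under all 21 alternatives, and with the split as a term the fall with IL-25 was -2.15 (adjusted p = 0.0279). IL-33 alone left Il15 at 14.6, 16.6 and 10.2 CPM, overlapping vehicle (-0.25 ± 0.30, adjusted p = 0.812). Every library with both cytokines lay below every IL-25 library, but that difference did not pass (-0.66 ± 0.43, adjusted p = 0.447). In ST2+ cells Il15 was close to the detection limit, with 6, 1, 3 and 4 counts in the vehicle libraries and 1, 2, 1 and 1 with IL-33, and it did not pass the filter on low counts. Without that filter edgeR gave -2.37 ± 0.894 (adjusted p = 0.102).

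Marker genes of other cells differed between the IL25R+ groups as well, beside Il15 and beside the receptor chains. Of the list for NK cells and ILC1 only Gzma, a cytotoxic granule protease, was listed, and it was at 253 to 267 CPM with vehicle, 134 to 161 with IL-25, 167 to 297 with IL-33 and 96.6 to 125 with both cytokines. Ncr1, Klrb1c, Eomes, Tbx21, Prf1 and Klre1 were not listed. Of 12 markers of macrophages and dendritic cells, textbook sources of IL-15, 8 were listed and summed to 426 to 621 CPM with vehicle, 398 to 422 with IL-25, 307 to 423 with IL-33 and 485 to 516 with both cytokines, while Csf1r, Itgax, Flt3 and Xcr1 were not listed. Cst3, which many cell types express, made up most of that sum (294 to 399 CPM), and the more specific Lyz2 (0 to 5.11 CPM), Adgre1 (0 to 4.38 CPM) and Cd68 (4.34 to 12.3 CPM) were low. The rest of the listed markers reached higher levels: H2-Aa (0 to 69.3 CPM), Cd74 (2.17 to 67.4 CPM), H2-Ab1 (2.17 to 43.6 CPM) and H2-Eb1 (0 to 33.2 CPM). The sum of 8 T cell markers was 1540 to 1554 CPM with vehicle, 1372 to 1528 with IL-25, 1511 to 1633 with IL-33 and 1097 to 1204 with both cytokines. Other lists were higher with IL-25. Stromal markers, of which 2 of 10 were listed, mainly Pecam1, an endothelial and leukocyte adhesion molecule, summed to 87.0 to 90.2 CPM with vehicle, 166 to 175 with IL-25, 93.5 to 135 with IL-33 and 189 to 212 with both cytokines. B cell markers, of which 2 of 5 were listed, mainly Cd79b, summed to 135 to 195 CPM with vehicle, 203 to 283 with IL-25, 115 to 147 with IL-33 and 175 to 216 with both. Cpa3, a mast cell protease and the 1 of 6 mast cell and basophil markers listed, was at 23.4 to 34.0 CPM with vehicle, 39.7 to 57.0 with IL-25, 28.5 to 36.2 with IL-33 and 27.6 to 33.1 with both. The part of these cells in the changes of Il15, Il2rg, Il2rb and Il2ra was not tested. In ST2+ cells the T cell markers summed to 165 to 349 CPM with vehicle and 50.4 to 141 with IL-33, and their part in the fall of Il7r was not tested either.

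**Figure D3:**
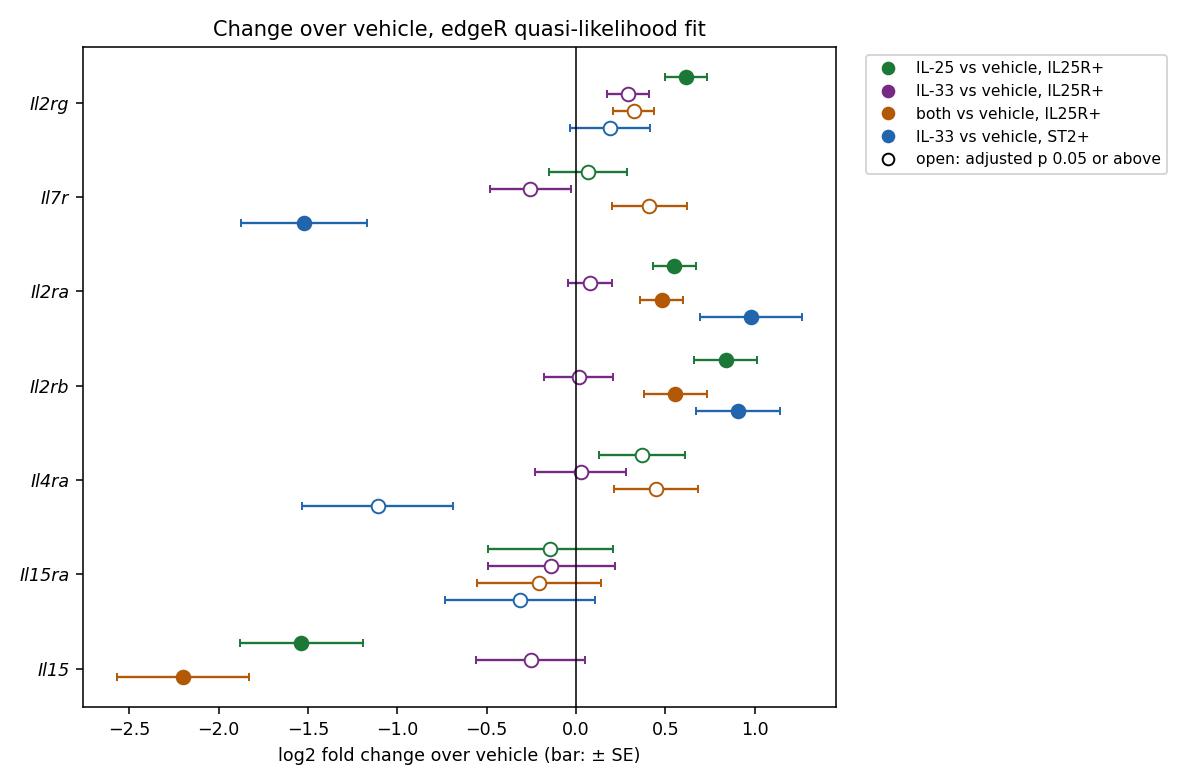
Log2 fold change over vehicle (horizontal axis, bars ± SE) of each gene in the 4 comparisons with vehicle; filled points passed an adjusted p of 0.05 in edgeR. Il15 stands furthest left with IL-25 (-1.54) and both cytokines (-2.20), and it has no point for ST2+ cells, where it was not tested.

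With a term for the Glycam1 split, Il15 still passed for IL-25 against vehicle and the 3 receptor chains did not. Il2ra went from 0.55 to 0.36 (adjusted p = 0.328) and Il2rg from 0.61 to 0.37 (adjusted p = 0.241). Il2rb did not shrink: it went from 0.84 ± 0.18 to 1.0 ± 0.34, and its adjusted p of 0.0702 came with the larger SE. Because the IL-33 group alone holds libraries of both sides, that term is estimated from IL-33 library 3 against libraries 1 and 2. For both cytokines against vehicle, which lie on the same side, Il2ra (adjusted p = 0.00272), Il2rb (0.0262) and Il15 (0.000102) passed with the term, and Il2rg passed as well (0.0285). For both cytokines against IL-33, Il15 (-1.95 ± 0.37, adjusted p = 0.000976) did not pass with the term (-1.49, adjusted p = 0.115). Without IL-33 libraries 1 and 2 that difference was -1.50. The higher Il15 with IL-33 than with IL-25 (1.28 ± 0.35, adjusted p = 0.0161) held with the term (1.44, adjusted p = 0.00931) and was 0.83 without IL-33 libraries 1 and 2. Its call ended with DESeq2 (0.054) and without IL-25 library 2 (0.0622) or 3 (0.0609) or IL-33 library 2 (0.0738).

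Whether IL-33 acted differently in the populations was tested directly, over the 9608 genes in both tables. Il2ra was the 1 member of 7 called, against 11.5% of the 8964 genes tested: its response to IL-33 was 0.95 ± 0.29 log2 units larger in ST2+ cells (adjusted p = 0.0393). That call was lost under 15 of 28 alternatives, 13 of them the omission of a single library (IL25R+ vehicle 1, 2 or 3, IL-25 2 or 3, IL-33 1, 2 or 3, both cytokines 2 or 3, ST2+ vehicle 2 or 4, or ST2+ IL-33 4; adjusted p from 0.0502 to 0.0807). The difference for Il7r was -1.16 ± 0.43 (adjusted p = 0.0848), for Il2rb 0.94 ± 0.32 (0.0607) and for Il15 -2.18 ± 0.72 (0.0527). Without the 3 ST2+ libraries that stand apart, Il7r (-1.33, adjusted p = 0.00735), Il2rb (1.09, 0.00348), Il4ra (-1.12, 0.0218) and Il15 (-2.93, 0.0101) passed and Il2ra did not (0.64, 0.0674). More of all genes were called in that fit too, as counted under the dependence on the processing. The Il15 values rest on 1 to 6 counts per ST2+ library, and Il15 did not pass the filter on low counts in the fit of ST2+ cells. Population and experiment cannot be told apart here, since each population has its own table and its own vehicle group.

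The ST2+ libraries differ in depth, and replicates 1 and 4 were the deepest in both groups. Within replicates 1 and 4, Il2rb passed (1.02, adjusted p = 0.0021), as did Il4ra (-1.02, 0.0193), while Il7r (-1.27, 0.0558) and Il2ra (0.91, 0.0799) missed the threshold. Within replicates 2 and 3 no member passed, with Il7r at -1.70 (adjusted p = 0.185), Il2ra at 1.14 (0.272) and Il2rb at 0.84 (0.404). All 4 genes kept their direction in both pairs of replicates. Counted over all genes, far more were called within replicates 1 and 4 than in the full fit, and far fewer within replicates 2 and 3. These counts are given under the dependence on the processing.

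The genes around these receptors were read from 7 lists with 59 entries. With IL-25, the STAT5-linked survival and growth genes had 3 of 9 members up and 0 down (median log2 fold change 0.10, against -0.03 for all genes). The share called over all genes, against which each list count with IL-25 is to be read, was 15%. Bcl2l1, which encodes the survival protein BCL-XL, rose from 41.1 ± 5.24 to 113 ± 12.2 CPM (SD, n = 3; 1.46 ± 0.17 log2, adjusted p = 3.02e-06). Pim2, a STAT-induced kinase, rose from 249.9 ± 11.6 to 443 ± 32.3 CPM (0.83 ± 0.12, adjusted p = 4.21e-05). Ccnd3, a D-type cyclin, rose by less (0.38 ± 0.11, adjusted p = 0.025), and its call was lost without IL-25 library 2 or 3 or any 1 of the vehicle libraries. Of 10 tested negative regulators of JAK-STAT signalling 2 rose and 1 fell. Cish, a target of STAT5 that dampens its signalling, rose from 122 ± 13.9 to 211 ± 31.3 CPM (0.79 ± 0.17, adjusted p = 0.00251). Foxo1, a factor that drives Il7r transcription in lymphocytes, fell from 226 ± 19.3 to 158 ± 4.97 CPM (-0.51 ± 0.13, adjusted p = 0.0083), while Il7r itself did not pass (0.07 ± 0.22). Of the JAK and STAT genes 1 of 9 fell, and of the PI3K, AKT and mTOR genes 0 of 8 tested were called. The calls of Bcl2l1, Pim2, Cish and Foxo1 held under all 21 alternatives, the split included.

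Both cytokines, compared with the same vehicle libraries, gave 4 of 9 STAT5-linked genes up and 1 down (median 0.40, against -0.03 for all genes). The share called over all genes was 15.6%. Bcl2l1 stood at 135 ± 23.1 CPM (1.70 ± 0.16, adjusted p = 1.93e-07), Pim2 at 543 ± 33.7 CPM (1.12 ± 0.12, adjusted p = 6.65e-07) and Cish at 246 ± 45.0 CPM (1.01 ± 0.17, adjusted p = 0.000207). Bcl2, the survival gene that IL-7 maintains in lymphocytes, fell from 299 ± 8.10 to 207 ± 10.4 CPM (-0.53 ± 0.12, adjusted p = 0.00428). Jak1, the kinase that binds the partner chains, fell from 751 ± 28.2 to 466 ± 29.5 CPM (-0.69 ± 0.11, adjusted p = 0.000172). These calls held under all 21 alternatives. Among the other receptors of the family 2 of 5 were listed: Crlf2, the receptor chain for TSLP that pairs with Il7r, rose (0.52 ± 0.15, adjusted p = 0.0224) and Il21r, the chain for IL-21, fell (-0.46 ± 0.13, adjusted p = 0.0202). Crlf2 lost its call without both-cytokine library 1 or 2 or vehicle library 1 or 2, and Il21r without both-cytokine library 2 or vehicle library 2 or 3. IL-33 alone called 1 gene of all 7 lists, Il13, a type-2 cytokine that signals through Il4ra (2.32 ± 0.47, adjusted p = 0.0399), a call lost under 13 of 21 alternatives. The share called over all genes with IL-33 alone was 0.237%.

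In ST2+ cells IL-33 called 6 of 9 STAT5-linked genes, 4 up and 2 down (median 0.31, against 0.00 for all genes). The share called over all genes, against which each list count here is to be read, was 16.5%. Bcl2 fell from 84.6 ± 11.6 to 19.8 ± 13.0 CPM (SD, n = 4; -2.21 ± 0.44, adjusted p = 0.00755) while Bcl2l1 rose from 78.2 ± 19.4 to 279 ± 45.9 CPM (1.81 ± 0.22, adjusted p = 0.00082). Pim2 rose from 81.0 ± 17.0 to 726 ± 292 CPM (3.15 ± 0.34, adjusted p = 0.000494) and Pim3, a related kinase, rose by 1.45 ± 0.22 log2 units (adjusted p = 0.00198). Jak2 rose from 33.8 ± 16.5 to 139.8 ± 39.7 CPM (2.05 ± 0.36, adjusted p = 0.00454) and was the 1 of 9 JAK and STAT genes called, with Jak3, the kinase bound to the gamma chain, at 48.8 to 86.6 CPM with vehicle and 61.5 to 99.1 CPM with IL-33 (0.09 ± 0.25, adjusted p = 0.846). Socs5, a suppressor of cytokine signalling, fell from 22.2 ± 8.76 to 3.33 ± 1.05 CPM (-2.78 ± 0.39, adjusted p = 0.00149). These calls were lost only within replicates 2 and 3 among 17 alternatives. Il9, whose receptor uses the gamma chain, was at 0 to 0.518 CPM with vehicle and at 62.1 to 137 CPM with IL-33. Of the other receptors of the family, 2 of 3 tested fell: Crlf2 (-0.62 ± 0.19, adjusted p = 0.0441) and Il21r (-1.83 ± 0.56, adjusted p = 0.0455), each lost under 9 of 17 alternatives. For Il21r the single libraries whose omission ended the call were IL-33 1, 3 and 4 and vehicle 2 and 3, and for Crlf2 they were IL-33 1, 3 and 4 and vehicle 1, 2 and 4.

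**Figure D4:**
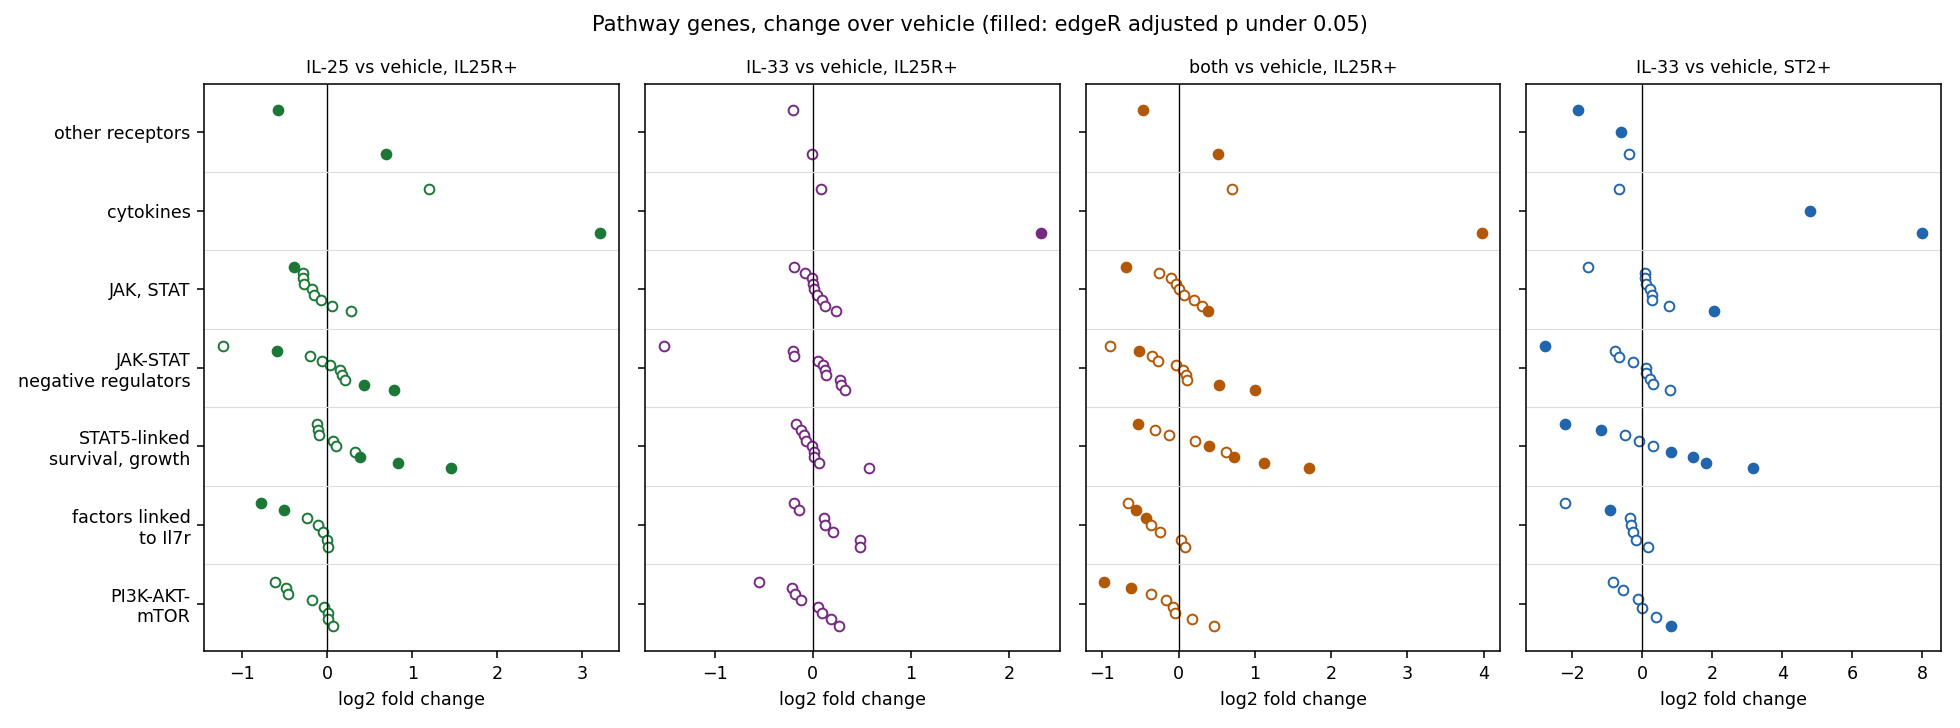
Log2 fold change over vehicle (horizontal axes, scaled separately in each panel) of each tested gene of the 7 lists, with filled points for an adjusted p under 0.05. The STAT5-linked genes lie on both sides of 0 in ST2+ cells with IL-33, with Pim2 at 3.15 and Bcl2 at -2.21, and the point furthest right is Il9, whose fitted fold rests on vehicle libraries close to 0.

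The genes whose pattern across the 12 IL25R+ libraries was nearest to that of a called member were found among 7720 genes, by the root mean square (RMS) difference of centred log2 CPM. For Il2ra they were Fth1 (0.0712), Fkbp1a (0.0959) and Slc25a5 (0.0974), where the median over all genes was 0.376. For Il2rg they were Psmd8 (0.0746), Tagln2 (0.0873) and Taldo1 (0.100), against a median of 0.372. For Il2rb they were F2r (0.152), Uchl1 (0.166) and Ninj1 (0.172), and for Il7r Ugcg (0.139), Mrpl13 (0.172) and Sh3bgrl (0.177). Over the 8 ST2+ libraries the same pairs differed by 0.459 to 0.577 for Il2ra, 0.677 to 1.27 for Il2rb and 0.728 to 1.08 for Il7r, while those of Il2rg differed by 0.263 to 0.287. No median over all genes was taken for the ST2+ libraries, where Il2rg itself did not pass with IL-33 (0.19 ± 0.22). Likeness in those libraries is therefore not ranked.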

How the data were processed

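RNA of sorted, cultured cells was sequenced in 20 libraries, 12 of IL25R+ and 8 of ST2+ cells. The authors deposited 1 table per population with raw counts per gene, normalised signal values (not used here), and their own log2 ratios and p-values. Per the submitters' processing notes, reads were handled with bcl2fastq, cutadapt, STAR 2.5.2b, HTSeq and DESeq2 on mm10. Whether counts are reads or unique molecules is not given in the sources used here. All per-sample columns were mapped by name to the labels, leaving 0 unmapped.

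From the counts, edgeR 4.0.16 (R 4.3.3) tested each contrast by its quasi-likelihood F-test with TMM scaling, over all groups of a table. Genes passed filterByExpr with a minimum count of 10 and a minimum total of 15. The p-values, two-sided, received the Benjamini-Hochberg adjustment per contrast, with a threshold of 0.05. CPM are counts scaled to the TMM-adjusted library size. Differences between populations came from 1 fit over both tables. Comparisons that share a control group are not independent. The workflow was tested on simulated counts.

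Alternatives were DESeq2 1.42.0, limma-voom (limma 3.58.1), other size factors, filters, a replicate block, the split as a term (libraries above or below 10 CPM of Glycam1), fits of only those groups being compared, and the omission of single libraries. Depth is 537999 to 5453444 counts, so members with few counts have wide errors. All members were named. Of each list, up to 4 called genes per comparison, averaging 10 CPM or more, were eligible by largest fold, and some of these are named. Jak3 was named for its role. Replicate numbers were checked as pairs: same-numbered libraries were no more alike than others in IL25R+ cells, but tended to be in ST2+ cells. The main fits did not pair the samples, and a replicate block served as an alternative. Members and lists were chosen with earlier results of these data known. Sequences come from RefSeq, without chromosome 18.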

Additional observations from a re-analysis of the deposited data

Results flagged for a closer look

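The response of Il2ra to IL-33 was larger in ST2+ than in IL25R+ cells by 0.95 on the log2 scale, by a direct test of the difference (edgeR, adjusted p = 0.0393). The call was lost under 15 of 28 alternatives, 11.5% of all genes were called in the same test, and population and experiment cannot be told apart. Among 38 sets of 4 ST2+ libraries examined, 2 held a library far from the other 3, where chance alone picks out about 1 in 20 such sets. Bcl2l1 was at 107 CPM in ST2+ vehicle library 4, the library with basophil genes, above the other vehicle libraries and below every IL-33 library. Ets1, a transcription factor of lymphocytes, was at 53.4 CPM in ST2+ IL-33 library 2, below the other libraries of its group.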

How the results depend on the processing

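Of 18 calls of members, 4 held under all alternatives (Il15 with IL-25 and with both cytokines against vehicle, Il2ra with both cytokines against vehicle and with IL-33 against IL-25), 14 were lost under at least 1 and 0 reversed. Of 41 calls of list genes against vehicle, 15 held, 26 were lost under at least 1 and 0 reversed. The causes of the changes given here were not tested. The alternatives that leave out IL-33 libraries 1 and 2 of IL25R+ cells or the 3 ST2+ libraries that stand apart, or that keep ST2+ replicates 1 and 4 or 2 and 3 alone, were chosen after seeing the data. Depth limits Il15 and Il15ra most.

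The number of members called was 1 with the split term for IL-25 against vehicle (4 otherwise). For both cytokines against IL-25 it was 1 without IL-33 libraries 1 and 2 or with the 2 groups alone. For both cytokines against IL-33 (4) it was 2 with DESeq2, the split term or the 2 groups alone and 1 without the IL-33 libraries. For the interaction it was 1 with DESeq2 or limma-voom. In ST2+ cells (3) it was 0 in replicates 2 and 3. For the difference between populations (1) it was 4 without the 3 libraries that stand apart, 2 with DESeq2 or its size factors, and 0 without the IL-33 libraries.

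Genes called fell from 1325 to 645 with the split term for IL-25 against vehicle. For IL-33 against vehicle (21) they were 36 with DESeq2, 303 without IL-33 libraries 1 and 2, 10 with limma-voom, 8 at a mean of at least 10 CPM, 2 without a filter, 212 with the split term and 1 with the 2 groups alone. For both cytokines against IL-25 (278) they were 828 without the IL-33 libraries, 5 with the split term and 870 with the 2 groups alone, and against IL-33 (1519) they were 768, 649 and 982. IL-33 against IL-25 gave 732 with the 2 groups alone (1223), and the interaction 14 with the split term (208). ST2+ cells gave 2343 without the 3 libraries, 3364 in replicates 1 and 4 and 31 in replicates 2 and 3 (1262). The difference gave 2248 without the 3 libraries and 356 without the IL-33 libraries (1032).

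No call changed sign, and the sign changes of uncalled values were these. With the split term, Il7r was at -0.57 for IL-25 against vehicle, Il2ra at -0.0569 for IL-33 against vehicle, and Il2ra at 0.12, Il4ra at -0.20 and Il15ra at 1.06 for both cytokines against IL-25. The same term gave 0.80 for Il15ra in both cytokines against IL-33 and, in the interaction, 0.18 for Il2ra, -0.42 for Il4ra and 0.67 for Il15. Without IL-33 libraries 1 and 2, Il2ra was at -0.0384 against vehicle, Il15ra at 0.79 for both cytokines against IL-33, -0.86 for IL-33 against IL-25 and 0.71 for the difference, Il2rg at 0.13 for the difference, and in the interaction Il4ra was at -0.16 and Il15 at 0.0280. Without the 3 ST2+ libraries Il2rg was at 0.20 for the difference. Il15ra for IL-33 against IL-25 (0.01) was at -0.0115 with DESeq2, -0.000863 with its size factors, -0.0308 with limma-voom, -0.000554 at a mean of at least 10 CPM, -0.000311 without a filter, -0.0190 with the block and -0.00220 with the 2 groups alone. Without TMM, mean levels were 135 CPM for Il2ra with vehicle and 174 CPM with IL-25, and with IL-25 62.7 CPM for Il2rb and 1115 CPM for Il2rg.

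Same-numbered libraries correlated at -0.126 to 0.129 in IL25R+ cells (median -0.0154, against 0.00554 for other pairs), and 3 of 12 libraries matched their own number best. In ST2+ cells they correlated at 0.0195 to 0.251 (median 0.136), against -0.263 to 0.128 (median -0.0404) for other pairs, and 5 of 8 libraries matched best. Same-numbered ST2+ libraries may thus be related, which the labels do not give, and the main fit did not pair them. With the replicate block 3 members were called for the difference (Il2ra, Il2rb at 0.92, adjusted p = 0.0459, and Il15 at -2.18, adjusted p = 0.0488). Il15 had 1 to 6 counts per ST2+ library.

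With each library left out in turn, genes called ranged from 832 to 1718 for IL-25, 0 to 151 for IL-33 and 779 to 1738 for both cytokines against vehicle in IL25R+ cells. They ranged from 80 to 620 for both cytokines against IL-25, 933 to 1928 against IL-33, 634 to 1252 for IL-33 against IL-25, 45 to 701 for the interaction, 619 to 2581 in ST2+ cells and 712 to 2002 for the difference. Members called ranged from 1 to 4 for both cytokines against IL-33, 0 to 1 for the interaction, 0 to 4 in ST2+ cells and 0 to 3 for the difference. Uncalled log2 values that changed sign were Il7r with IL-25 (-0.0667 to 0.25), Il2rb (-0.0785 to 0.17) and Il4ra (-0.0984 to 0.20) with IL-33, Il4ra for both cytokines against IL-25 (-0.0527 to 0.21) and the interaction (-0.12 to 0.19), and Il2rg for both cytokines against IL-33 (-0.0350 to 0.14) and the difference (-0.15 to 0.12). Il15ra did so with IL-25 (-0.34 to 0.32), IL-33 (-0.42 to 0.32) and both cytokines against vehicle (-0.41 to 0.26), both cytokines against IL-25 (-0.22 to 0.0786) and IL-33 (-0.31 to 0.22), IL-33 against IL-25 (-0.29 to 0.25), the interaction (-0.39 to 0.36) and the difference (-0.58 to 0.14).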
